A study of Populus ussuriensis with 9 samples.

Results

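The phenylpropanoid pathway turns the amino acid phenylalanine into phenolic compounds of plants, and its entry consists of 3 enzymes. Phenylalanine ammonia-lyase (PAL) removes the amino group to give cinnamic acid, cinnamate 4-hydroxylase (C4H) adds a hydroxyl group to give p-coumaric acid, and 4-coumarate:CoA ligase (4CL) activates this acid as p-coumaroyl-CoA. That product feeds both the monolignols, from which lignin is made, and the flavonoids and condensed tannins that are abundant in poplar leaves. The members described here are 9 genes of these families, chosen by locus ID and enzyme with earlier results of these data known. They are the PAL genes PAL1 to PAL5, the C4H genes C4H1 and C4H2, and the 4CL genes 4CL3 and 4CL5. All 9 IDs were found among the 29764 rows of the expression table. The PAL genes are Potri.006G126800.v3.0 (PAL1), Potri.008G038200.v3.0 (PAL2), Potri.016G091100.v3.0 (PAL3), Potri.010G224100.v3.0 (PAL4) and Potri.010G224200.v3.0 (PAL5). The others are Potri.013G157900.v3.0 (C4H1), Potri.019G130700.v3.0 (C4H2), Potri.001G036900.v3.0 (4CL3) and Potri.003G188500.v3.0 (4CL5). The names are those of the gene families of Populus trichocarpa. The table holds IDs without names, so the match of name and ID was not checked against an annotation.

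The study sequenced leaf RNA of the poplar Populus ussuriensis (fully expanded leaves), with 3 libraries from each of 3 genotypes. WT was the wild type, OE14 a transgenic line labelled as having a moderate level of LbDREB6 overexpression, and OE18 a line labelled as having a high level; DREB proteins are plant transcription factors named for binding the dehydration-responsive element. Plants of every genotype were 6 months old, grown in a greenhouse and left without water, for 2 weeks by the sample descriptions and for 1 week by the treatment protocol. Watered plants were not analysed here, so each comparison is between genotypes under drought. Each level of overexpression is 1 line, so level and line cannot be told apart, and the promoter driving the transgene is not given in the sources used here. LbDREB6 itself was not analysed here, and the leaf identity of the libraries was not checked, because the table gives no gene names for markers. The WT libraries were identified by elimination, since their column headings (C1 to C3) differ from the sample titles.

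Values are FPKM (fragment counts scaled by gene length and by the reads assigned in the library), which allows levels to be compared between genes. Library totals recovered from the values ran from 10988010 to 16221919 reads. A gene was called when the limma adjusted p (Benjamini-Hochberg over all genes tested) was under 0.05, with fold changes on the log2(FPKM + 1) scale, which understates changes of genes with low values. All 9 members passed the filter of 1 FPKM in at least 3 of the 9 libraries. PAL5 passed through transgenic libraries alone and 4CL5 through 5 transgenic libraries and 1 WT library, so for these genes the filter favoured a difference. The labels do not say whether the libraries came from separate plants beyond calling them biological replicates, and the p-values measure the spread between these libraries. For the members the SD ran from 0.457% of the mean (PAL4 in WT, 243 to 285 reads) to 21.5% (PAL5 in OE14, 25 to 40 reads). How this compares with the spread from counting reads alone was not tested. Whether the p-values also speak for other plants of a line cannot be told.

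Transcripts of the listed members were more abundant in both transgenic lines than in WT when added up by enzyme. Any other genes for these enzymes are not part of the sums. The observed rises differed in size between the 3 families, which the limma comparisons with WT do not test. Summed PAL transcripts were 304 ± 2.3 FPKM in WT, 575 ± 20 in OE14 and 1130 ± 28 in OE18 (SD, n = 3 each). These sums were higher than in WT by 0.92 on the log2 scale in OE14 and by 1.89 in OE18 (SE 0.039 for both; limma adjusted p = 3.7e-10 and 3.2e-14). The summed C4H transcripts were 49.4 ± 1.7, 65.3 ± 2.4 and 90.4 ± 1.8 FPKM in the same order, higher by 0.40 and 0.86 (SE 0.045; limma adjusted p = 6.5e-06 and 4.2e-10). The summed 4CL transcripts were 9.11 ± 0.13, 20.9 ± 0.45 and 24.0 ± 0.55 FPKM, higher by 1.11 and 1.31 (SE 0.055; limma adjusted p = 1.6e-09 and 4.2e-11). PAL and C4H thus also rose from OE14 to OE18, by 0.97 and 0.47 on the log2 scale (limma adjusted p = 3.2e-11 and 3.5e-07), whereas most of the 4CL difference was already present in OE14. The 4CL step from OE14 to OE18 was 0.19 (limma adjusted p = 0.0054). It was 0.11 and no longer called (limma adjusted p = 0.088) when each library was rescaled to the same sum. In whole leaves, more RNA per cell and more cells that contain a transcript cannot be told apart.

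**Figure D1:**
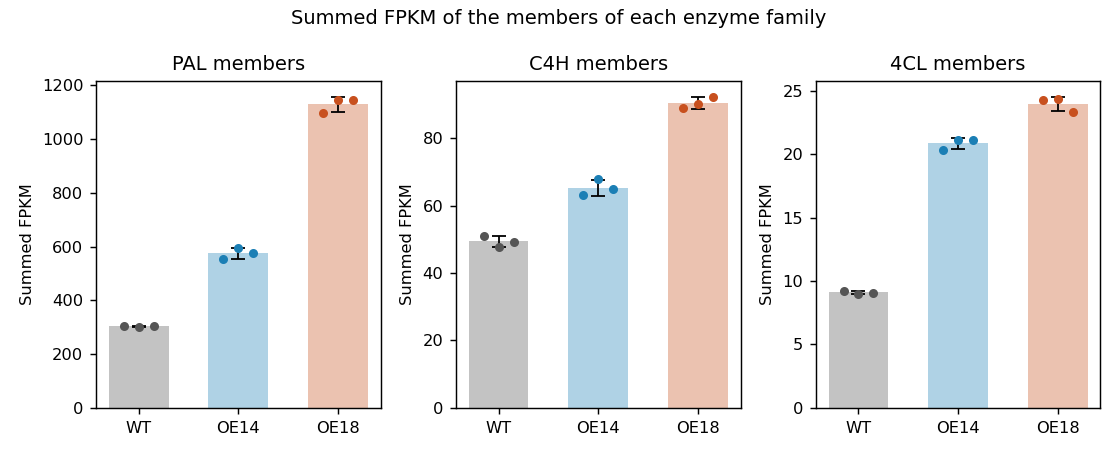
Summed FPKM of the PAL (5 genes), C4H (2 genes) and 4CL (2 genes) members in WT, OE14 and OE18; points are libraries, bars are means and error bars SD of 3 libraries. The libraries of the 3 genotypes do not overlap in any of the 3 panels, and the PAL sum goes from about 304 through 575 to 1130 FPKM.

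The proportions between the summed transcripts of the listed PAL, C4H and 4CL members were also compared within each library. These are ratios between chosen genes and not between whole steps of the pathway. 4CL3 alone made up 89.0% of the 4CL sum in WT, 94.3% in OE14 and 91.6% in OE18 (means). WT libraries had 6.15 ± 0.19 times as much summed PAL as summed C4H FPKM, OE14 libraries 8.82 ± 0.056 times and OE18 libraries 12.5 ± 0.19 times (SD, n = 3 each). The ratio of summed PAL to summed 4CL FPKM was 33.3 ± 0.48, 27.6 ± 0.49 and 47.1 ± 2.0, lowest in OE14. The ratio of summed C4H to summed 4CL FPKM was 5.42 ± 0.11, 3.13 ± 0.073 and 3.77 ± 0.16. Each of these ratios is formed within a library and does not depend on a common scaling factor. None of the 3 ratios overlapped between any of the genotypes. An exact two-sided permutation test of each log2 ratio gave p = 0.1 in all 9 comparisons of genotypes, also after adjustment. That is the smallest p that 3 libraries against 3 allow. The test could therefore not pass the threshold whatever the values, and no conclusion is drawn from it.

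Of the 9 members, PAL1 changed most against WT in both lines. Its FPKM was 84.5, 81.5 and 85.6 in the WT libraries, then 278, 298 and 289 in OE14 and 745, 765 and 765 in OE18. Every OE14 library lay above every WT library, and every OE18 library lay far above both. The mean was 3.44 ± 0.086 times that of WT in OE14 and 9.05 ± 0.16 times that of WT in OE18 (ratio of means ± SE, n = 3 each). The log2 fold changes were 1.77 and 3.16 (SE 0.040 for both; limma adjusted p = 4.1e-13 and 3.1e-16), and the step from OE14 to OE18 was 1.39 (limma adjusted p = 1.1e-12). Among the 22848 genes tested, 99.6% had a lower fold change than PAL1 in OE14 and 98.2% in OE18. By mean FPKM PAL1 was number 890 of all rows in WT, number 180 in OE14 and number 48 in OE18.

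PAL3 was the most abundant member in WT and rose mainly in OE18. It had 115, 116 and 116 FPKM in WT, then 137, 147 and 145 in OE14 and 273, 303 and 297 in OE18. The groups did not overlap, but OE14 lay close above WT. The log2 fold change was 0.30 in OE14 (SE 0.045, limma adjusted p = 8.6e-05) and 1.32 in OE18 (limma adjusted p = 5.1e-12). The ratio of PAL1 to PAL3 FPKM was 0.725 ± 0.022 in WT, compared with 2.02 ± 0.019 in OE14 and 2.61 ± 0.10 in OE18 (SD, n = 3 each), with no overlap between genotypes.

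PAL2 was the single member that went up in one line and down in the other. It had 94.7, 94.7 and 96.1 FPKM in WT, then 126, 136 and 126 in OE14 and 58.6, 57.2 and 62.4 in OE18. All OE14 libraries were above and all OE18 libraries below the range of WT. The log2 fold change was 0.43 in OE14 (SE 0.046, limma adjusted p = 3.4e-06) and -0.67 in OE18 (SE 0.046, limma adjusted p = 8.1e-09). The direct comparison of the lines gave a log2 fold change of -1.11 (limma adjusted p = 4.3e-11). Over all genes tested, 7.98% were called higher in OE14 and lower in OE18, both against the same WT libraries.

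PAL4 and PAL5, whose neighbouring IDs place them side by side on chromosome 10, were expressed at lower levels. PAL4 had 8.33, 8.33 and 8.40 FPKM in WT, then 14.2, 14.02 and 15.2 in OE14 and 18.96, 19.1 and 20.7 in OE18. It rose in steps without overlap, with log2 fold changes of 0.73 in OE14 and 1.14 in OE18 (SE 0.064 for both; limma adjusted p = 5.2e-07 and 8.9e-10). PAL5 was the scarcest member, with 0.519, 0.599 and 0.505 FPKM in WT, then 1.05, 1.01 and 0.689 in OE14 and 1.43, 1.38 and 1.23 in OE18. These values rest on 14 to 17 reads per library in WT, 25 to 40 in OE14 and 33 to 47 in OE18. PAL5 was called higher in OE18 (log2 fold change 0.61, SE 0.12, limma adjusted p = 0.00031). The PAL5 call in OE14 was near the threshold (0.31, limma adjusted p = 0.041) and was lost when any of the WT libraries, OE14 replicate 1 or OE14 replicate 2 was left out (0.26 to 0.34, limma adjusted p 0.060 to 0.13). Its step from OE14 to OE18 (0.30, limma adjusted p = 0.033) was not called without OE14 replicate 3 or OE18 replicate 1 or 2 (0.21 to 0.29, limma adjusted p 0.068 to 0.15), and quantile normalization ended the PAL5 calls in all 3 comparisons. The ratio of PAL4 to PAL5 FPKM was 15.5 ± 1.4 in WT, compared with 16.5 ± 4.8 in OE14 and 14.7 ± 1.9 in OE18 (SD, n = 3 each), with overlap between all genotypes.

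**Figure D2:**
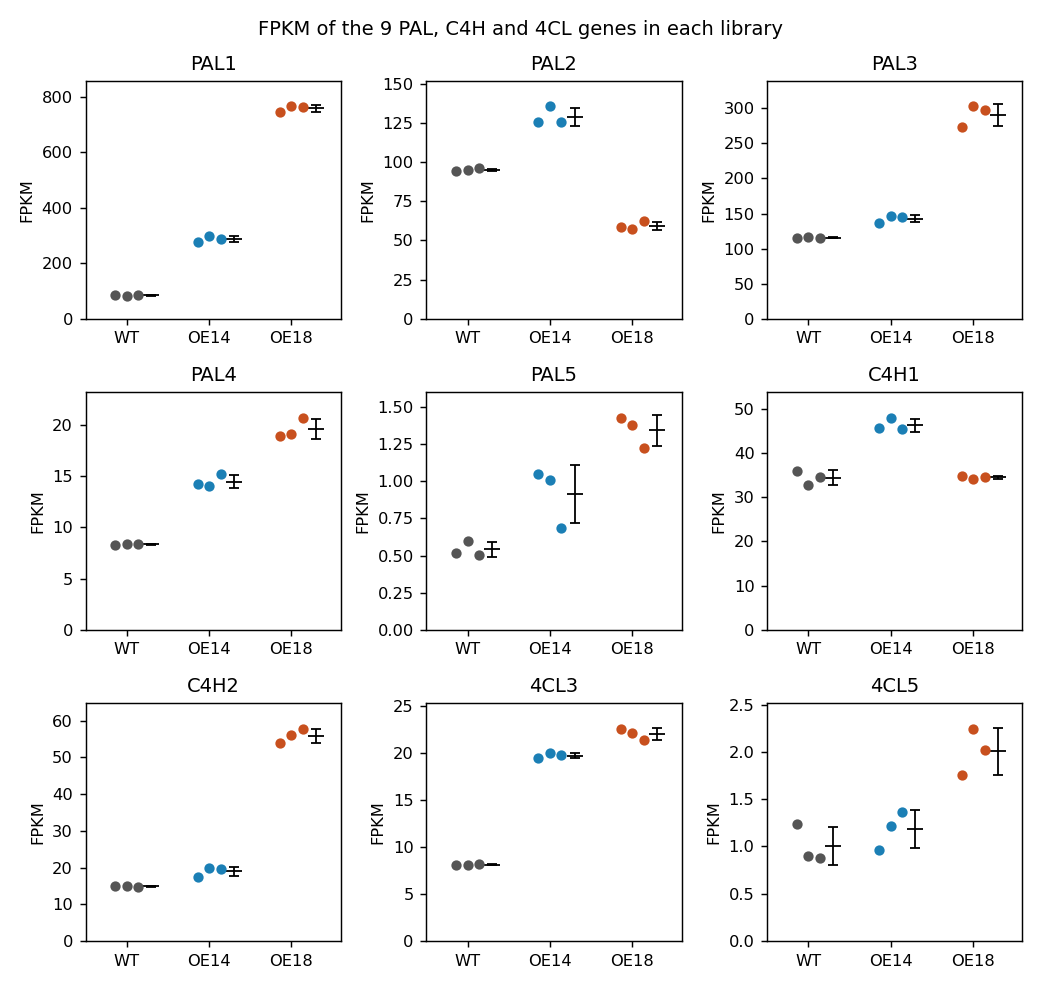
FPKM of each of the 9 genes (vertical axis, its own scale from 0 in each panel) in the 3 libraries of WT, OE14 and OE18; points are libraries, and the mark beside them is the mean with its SD. PAL1 rises at each step, PAL2 is highest in OE14 and lowest in OE18, C4H1 is raised in OE14 alone, C4H2 is raised mainly in OE18, and 4CL3 is raised to a similar level in both lines.

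The PAL transcripts therefore differed between the genotypes in makeup as well as in amount. In WT the summed PAL FPKM consisted of 27.6% ± 0.51 PAL1, 31.4% ± 0.10 PAL2 and 38.1% ± 0.43 PAL3 (SD, n = 3). In OE14 PAL1 made up 50.1% ± 0.13, PAL2 22.4% ± 0.51 and PAL3 24.8% ± 0.30. In OE18 PAL1 made up 67.1% ± 0.65, PAL2 5.26% ± 0.23 and PAL3 25.7% ± 0.76. The shares of PAL1 and PAL2 did not overlap between any of the genotypes, while the PAL3 share overlapped between the lines. PAL4 contributed 1.67% to 2.77% and PAL5 at most 0.199% in every library.

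How the authors' counting treated reads that fit several similar genes is not given in the sources used here, so members of a family with near-identical sequence may have shared reads; this was not tested. Sums within subsets of the PAL genes were therefore also tested, a choice made after the data were seen. The grouping was not checked against sequences. PAL1 and PAL3 together had 200 ± 1.7 FPKM in WT, 431 ± 15 in OE14 and 1049 ± 27 in OE18 (SD, n = 3 each), which is 1.11 and 2.39 above WT on the log2 scale (limma adjusted p = 5.4e-11 and 3.6e-15). PAL2, PAL4 and PAL5 together had 104 ± 0.78, 144 ± 5.4 and 80.3 ± 3.5 FPKM, and their sum changed by 0.47 in OE14 and by -0.37 in OE18 (limma adjusted p = 1e-06 and 2.9e-06). PAL2 supplied most of this second sum in every genotype, so the sum follows PAL2 and is no separate evidence of its course. PAL4 and PAL5 themselves were higher in OE18. PAL1 supplied 288 of the 431 FPKM of the first sum in OE14 and 758 of the 1049 in OE18. The first sum is therefore no separate evidence of the PAL1 rise.

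C4H1 was the more abundant of the C4H members in WT and OE14, and C4H2 was in OE18. In Populus trichocarpa both proteins are known from enzyme complexes of wood-forming tissue. C4H1 had 36.0, 32.8 and 34.5 FPKM in WT, then 45.7, 48.0 and 45.3 in OE14 and 34.9, 34.1 and 34.5 in OE18. The OE14 libraries stood above all others, and the OE18 libraries lay within the range of WT. C4H1 rose in OE14 (log2 fold change 0.42, SE 0.049, limma adjusted p = 8.9e-06). It was not called in OE18 against WT (0.0035, 95% interval -0.10 to 0.11, limma adjusted p = 0.95), and was lower in OE18 than in OE14 by the direct comparison (-0.41, limma adjusted p = 3e-06).

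C4H2 had 15.1, 14.9 and 14.8 FPKM in WT, then 17.4, 19.9 and 19.5 in OE14 and 53.9, 56.0 and 57.8 in OE18. OE14 lay a little above WT without overlap, and OE18 lay far above both. The log2 fold change was 0.32 in OE14 (SE 0.058, limma adjusted p = 0.00042) and 1.84 in OE18 (SE 0.058, limma adjusted p = 2.4e-12), and the mean of OE18 was 3.75 ± 0.077 times that of WT (ratio of means ± SE, n = 3 each). C4H1 made up 69.7% ± 0.92 of the summed C4H FPKM in WT and 71.0% ± 1.3 in OE14, but 38.2% ± 0.99 in OE18 (SD, n = 3 each). The share overlapped between WT and OE14, and lay lower without overlap in OE18.

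**Figure D3:**
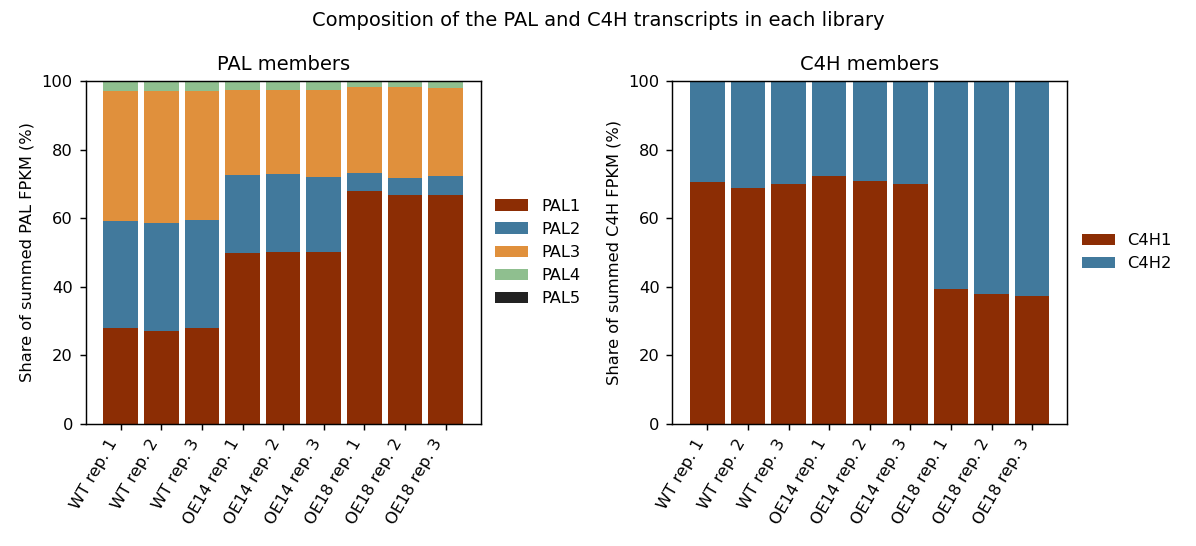
Shares of the summed PAL FPKM (left) and the summed C4H FPKM (right), in percent, for each member in each of the 9 libraries; each bar is 1 library. The PAL1 part grows from about 27.6% in WT to 67.1% in OE18 while the PAL2 part shrinks to 5.26%, and C4H2 is the larger part of C4H in the OE18 libraries.

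4CL3 and 4CL5, which are known to act as a complex in developing xylem of Populus trichocarpa, differed widely in level. 4CL3 had 8.02, 8.10 and 8.22 FPKM in WT, then 19.4, 19.9 and 19.7 in OE14 and 22.5, 22.1 and 21.3 in OE18. Both lines lay far above WT, and the OE18 libraries lay just above those of OE14. The log2 fold changes against WT were 1.18 and 1.33 (SE 0.056 for both; limma adjusted p = 1.1e-09 and 4.2e-11). In OE14, 98% of the genes tested had a lower fold change than 4CL3, and in OE18 87.0% had. The small step from OE14 to OE18 (0.15, limma adjusted p = 0.023) was not called without OE14 replicate 1 or 3 or OE18 replicate 1 or 2 (0.14 to 0.15, limma adjusted p 0.053 to 0.065), nor when the libraries were rescaled to the same sum (0.072, limma adjusted p = 0.28).

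4CL5 had 1.23, 0.895 and 0.875 FPKM in WT, then 0.967, 1.22 and 1.37 in OE14 and 1.76, 2.25 and 2.02 in OE18, from 21 to 65 reads per library. WT and OE14 overlapped, and the OE18 libraries were above both. 4CL5 was not called in OE14 (log2 fold change 0.13, 95% interval -0.14 to 0.40, limma adjusted p = 0.41) and was higher in OE18 (0.59, SE 0.12, limma adjusted p = 0.00061), though not after quantile normalization (0.20, limma adjusted p = 0.15). The ratio of 4CL3 to 4CL5 FPKM was 8.31 ± 1.6 in WT, compared with 16.9 ± 2.9 in OE14 and 11.1 ± 1.6 in OE18 (SD, n = 3 each). This ratio did not overlap between the genotypes, but WT and OE18 lay close. The highest WT library had 9.39 and the lowest OE18 library 9.83, with 4CL5 at 21 to 65 reads per library.

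Counted over the members, 8 of 9 were called in OE14 against WT, all 8 higher, and 4CL5 was not called. In that comparison 52.8% of all genes tested were called, 31.9% higher and 20.9% lower. All counts of members given here include PAL5, which passed the filter through transgenic libraries alone. In OE18 against WT, 7 members were called higher, PAL2 was called lower and C4H1 was not called, where 79.5% of all genes were called, 41.6% higher and 37.9% lower (9511 and 8648 genes). That balance turned to 8028 higher and 10647 lower with quantile normalization and to 8766 and 9477 with rescaling to the same sum. In OE18 against OE14 all 9 were called, 7 higher and 2 lower (PAL2 and C4H1), where 77.7% of all genes were called, 38.8% in each direction. The moderated F test over the 3 genotypes called all 9 members and 87.9% of all genes. The libraries did not overlap for 8 members in OE14 against WT (60.4% of all genes), for 8 in OE18 against WT (80.3%) and for 9 in OE18 against OE14 (79.1%).

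With such backgrounds a call by itself says little, and sizes were more informative. On the log2(FPKM + 1) scale, a rise of 2-fold or more was called for 2 members in OE14 (PAL1 and 4CL3), where 3.55% of all genes rose by as much. The same was called for 5 members in OE18 (PAL1, PAL3, PAL4, C4H2 and 4CL3), where 18.8% of all genes did. That scale understates the 2 scarcest members, whose mean FPKM in OE18 was 2.485 ± 0.17 (PAL5) and 2.00 ± 0.27 (4CL5) times that of WT (ratio of means ± SE, n = 3 each). For PAL5 in OE18 against WT the log2 fold change was 0.61 with a pseudocount of 1, 1.17 with a pseudocount of 0.1 and 1.30 with limma voom on the recovered reads, and for 4CL5 it was 0.59, 0.94 and 0.98. Between the lines PAL1, PAL3 and C4H2 were higher in OE18 by 2-fold or more (16.2% of all genes) and PAL2 was lower by 2-fold or more (9.39% of all genes). The median log2 fold change of the members was 0.42 in OE14 and 1.14 in OE18 against WT, beside 0.07 and 0.03 for all genes tested. Both comparisons share the WT libraries, and the members were chosen with earlier results of these data known. PAL1, PAL3, PAL4, C4H2 and 4CL3 were called higher in OE14 than in WT and higher again in OE18 than in OE14, as were 12.5% of all genes. For 4CL3 the call of the small step from OE14 to OE18 was lost under 5 alternatives. PAL5 was also called at both steps, but it entered the test through transgenic libraries alone, and each of these 2 calls was lost under 7 alternatives.

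**Figure D4:**
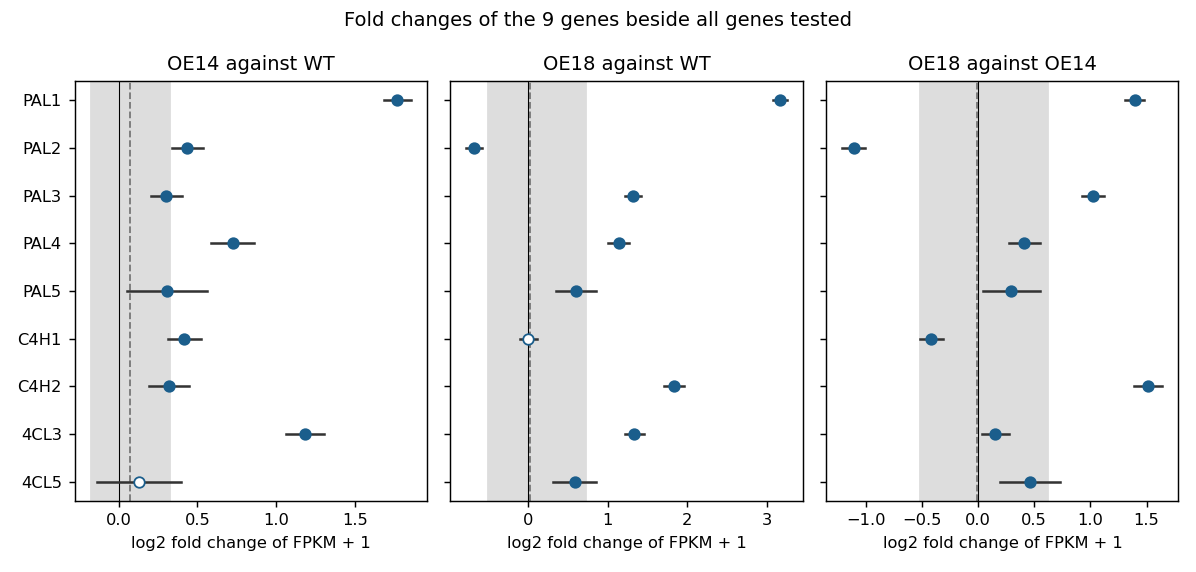
Log2 fold changes of FPKM + 1 (horizontal axis) of the 9 genes in the 3 comparisons, with 95% intervals; filled points were called by limma and open points were not. The grey band spans the middle 50% of all genes tested and the dashed line is their median; PAL1 lies to the right of the band in all 3 panels, and PAL2 lies to its left in both comparisons with OE18.

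The order of the members by level also changed. In WT the order was PAL3, PAL2, PAL1, C4H1, C4H2, PAL4, 4CL3, 4CL5 and PAL5, and no neighbours in this order overlapped over the 3 libraries. In OE14 PAL1 was first, ahead of PAL3, PAL2, C4H1, 4CL3, C4H2, PAL4, 4CL5 and PAL5. There 4CL3 and C4H2 overlapped, and so did 4CL5 and PAL5. In OE18 the order was PAL1, PAL3, PAL2, C4H2, C4H1, 4CL3, PAL4, 4CL5 and PAL5, with overlap between PAL2 and C4H2 only. The 9 members together had 362 ± 3.4 FPKM in WT, 661 ± 23 in OE14 and 1244 ± 30 in OE18 (SD, n = 3 each).

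Many other genes followed the same course over the libraries. Among 15037 genes with a mean of 5 FPKM or more, 208 had a Pearson's r above 0.99 with the summed PAL transcripts over the 9 libraries on the log2(FPKM + 1) scale, 131 with the summed C4H and 53 with the summed 4CL transcripts. The libraries fall into 3 genotypes, so r mainly compares 3 group levels. The gene most like the PAL sum was Potri.018G109700.v3.0 (r = 0.9992), with 244 ± 2.9, 370 ± 16 and 575 ± 14 FPKM in WT, OE14 and OE18 (SD, n = 3 each). The gene most like the 4CL sum was Potri.002G104600.v3.0 (r = 0.9992), with 44.9 ± 0.93, 113 ± 1.9 and 132 ± 2.4 FPKM. The highest r with the C4H sum was 0.998. The table does not pair these IDs with names.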

How the data were processed

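Leaf RNA was extracted with CTAB and sequenced as Illumina libraries, per the labels' protocols. The values are FPKM as deposited by the authors in 1 table. Of the authors' tools, HISAT2 2.1.0 and Bowtie2 2.2.3 appear in the submitters' processing notes. How reads were counted, whether by strand, and on which build and annotation is not given in the sources used here. Whole reads and gene lengths were recovered from ratios of FPKM within genes: all 29005 genes above 0 in 2 or more libraries gave whole reads within 0.001 reads and whole lengths within 0.0001 bases. The filter of 1 FPKM in 3 of the 9 libraries left 22848 genes. Their log2(FPKM + 1) values entered a single limma fit (version 3.58.1, R 4.3.3) with a variance trend, two-sided tests and 6 residual degrees of freedom, and family sums were added as further rows. The limma code was tested on simulated data in which few genes changed, in a single group. That setting does not cover data in which most genes are called. Family sums and permutation tests were not part of the simulation. Ratios of means carry a propagated SE. Log2 ratios between family sums were compared by exact two-sided permutation tests over libraries, chosen after these data were seen. All 9 members were named. For each family sum the 2 most alike genes were sought by rule, of which 2 IDs in all are printed because the table gives no names. Lists of lignin, flavonoid, leaf and xylem genes were not used for the same reason. Alternatives were other pseudocounts, filters and scalings, limma voom on the recovered reads, fits on 2 groups, leaving out each library and a replicate block. The members and lists were chosen with earlier results of these data known.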

Additional observations from a re-analysis of the deposited data

Results flagged for a closer look

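The direct limma comparison of the lines called a difference between OE18 and OE14 in the effect against WT, for every member and for the family sums. On the log2 scale the OE18 effect minus the OE14 effect was 1.39 for PAL1, -1.11 for PAL2, 1.02 for PAL3, 0.41 for PAL4 and 0.30 for PAL5. It was -0.41 for C4H1 and 1.52 for C4H2, and 0.15 for 4CL3 and 0.46 for 4CL5. For the summed transcripts it was 0.97 for PAL, 0.47 for C4H and 0.19 for 4CL. In this comparison 77.7% of all genes tested were called, so the calls by themselves say little about the members. The differences of 4CL3 and PAL5 were near the threshold (limma adjusted p = 0.023 and 0.033), and those of the other members had a limma adjusted p of at most 0.0039. PAL5 had passed the filter through transgenic libraries alone. Quantile normalization ended the calls of PAL5 and 4CL5 in this comparison (limma adjusted p = 0.78 and 0.14). Rescaling to the same sum ended those of 4CL3, PAL5 and the 4CL sum (limma adjusted p = 0.28, 0.072 and 0.088).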

How the results depend on the processing

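The calls and directions of PAL1, PAL2, PAL3, PAL4 and C4H2 were the same in each of the 55 alternative values computed for each gene. For C4H1 in OE18 against WT, which was not called, the sign turned with quantile normalization (-0.0446), with rescaling to the same sum (-0.0883) and with median-of-ratios scaling (-0.0408), and it ranged from -0.0303 to 0.0348 when single libraries were left out; the adjusted p stayed at 0.12 or more. For 4CL5 in OE14 against WT, also not called, quantile normalization gave -0.0056. Quantile normalization also ended the calls of PAL5 in all 3 comparisons and of 4CL5 in the comparisons with OE18, with log2 fold changes of 0.14, 0.17 and 0.04 for PAL5 and of 0.20 and 0.21 for 4CL5. The median log2 fold change over all genes, 0.03 for OE18 against WT and -0.01 for OE18 against OE14, became -0.15 and -0.12 under that scaling. It divided the genes called in OE14 against WT into 5883 higher and 5787 lower, in place of 7297 and 4778. The summed 4CL transcripts in OE18 against OE14 fell below the threshold with rescaling to the same sum (0.1131). Over all alternatives PAL5 lost a call in 15 of 52 values, 4CL3 in 5 of 55 and 4CL5 in 2 of 52, and no member gained one. The number of members called was 6 to 9 of 9 under all alternatives that kept all members, and 6 or 7 of 7 where a mean of 5 FPKM was required, which left out PAL5 and 4CL5. The cause was not tested for any of these changes. Whether replicate numbers pair the libraries of OE14 and OE18 was not tested. Correlations of deviations were 0.15, 0.13 and -0.03 for equal numbers and ran from -0.21 to 0.09 for unequal numbers. The WT columns could not be matched to sample numbers. With the replicate number as a block, 8 members and 17738 genes were called in OE18 against OE14, and PAL5 was not (0.30, limma adjusted p = 0.055). Depth limits PAL5 and 4CL5, which had 14 to 65 reads per library.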

Other observations

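The members lie on 8 chromosomes by their IDs, and they can be set beside the loci nearest to them. For PAL1 on chromosome 6, the 20 tested loci nearest by ID had a median log2 fold change of -0.09 in OE14 (from -0.80 to 0.87) and 0.02 in OE18 (from -2.06 to 2.01), beside 1.77 and 3.16 for PAL1 itself, which lay outside both ranges. For C4H2 on chromosome 19, the neighbours had a median of 0.21 in OE14 (from -0.33 to 1.80) and -0.02 in OE18 (from -2.36 to 2.69), and C4H2, with 0.32 and 1.84, lay within both ranges. For 4CL3 on chromosome 1, the neighbours had medians of 0.03 and -0.0017, with highest values of 0.74 and 1.74, so that 4CL3 lay outside their range in OE14 (1.18) and within it in OE18 (1.33). For PAL2 on chromosome 8 the neighbours had a median of 0.01 in OE14 and -0.33 in OE18, from -1.36 to 2.56, and the fall of PAL2 in OE18 (-0.67) lay within that range. PAL4 lay above its neighbours in OE14 (0.73, beside a highest value of 0.70) and within their range in OE18. The remaining members, PAL3, PAL5, C4H1 and 4CL5, lay within the ranges of their neighbours in both lines. The order of loci follows the IDs, and whether it holds in Populus ussuriensis was not examined.

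The lengths recovered from the FPKM steps were 2446 to 2691 bases for the PAL genes, 2247 and 2499 for C4H1 and C4H2, and 2235 and 2119 for 4CL3 and 4CL5. The reads behind the values ran from 1844 in the OE18 library with fewest PAL2 reads to 27493 in the OE18 library with most PAL1 reads, for the 3 abundant PAL genes.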
